A study of Stylophora pistillata with 6 samples.

Results

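The 200 mRNAs described here are those whose relative level varied least over 6 libraries from branches of the reef coral Stylophora pistillata, 3 from nubbins (small coral fragments) under a daily light cycle and 3 from nubbins kept dark. They were chosen from 36031 predicted transcripts, of which 33152 are mRNA models, in steps. First, the estimated read count had to be a whole number in all 6 libraries, which held for 18297 mRNA models. The mean level had to reach 20 CPM (estimated reads of the transcript per 1000000 estimated reads of the library), which left 5078. The 200 mRNA models of highest mean CPM were then set aside, 148 of them among those 5078, which left 4930 eligible mRNAs. From these, the 200 with the lowest coefficient of variation (the SD divided by the mean, n = 6) were kept. Every value below that concerns how little these 200 vary over the 6 libraries was therefore used to choose them and is given as a description, with no test.

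Control nubbins were kept on 12 h of light and 12 h of darkness a day at an irradiance of 230 μmol photons per square metre per second. Dark nubbins were kept on 24 h of darkness a day for 6 months and showed a bleached appearance. Both groups were held in seawater at 25 °C with the same food, frozen rotifers daily and live brine shrimp larvae on some days, and RNA came from subapical branch tissue. No genotype, colony or age is given for the nubbins in the sources used here, so it is not known whether they are independent animals. If they are fragments of the same colony, the spread within groups and the p-values below hold for nubbins of that colony only. The spread between samples of a group may also be partly technical.

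As background, a symbiotic coral houses dinoflagellate algae inside the cells of its inner tissue layer and receives sugars and lipids from their photosynthesis. Without light the algae cannot fix carbon, and a coral that survives long darkness usually loses algae or their pigment and lives on captured food. Transcripts whose level holds across such conditions are of practical use, since PCR and other relative measurements are expressed against reference transcripts assumed not to move. A level expressed per library total is a share of a library, so a transcript can only be steady relative to the rest of the RNA that was counted. In bulk tissue a level combines the number of cells of each type and the RNA in each cell, and these cannot be told apart.

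The files pair no transcript with a product. Through a RefSeq gene table, 147 of the 200 mRNAs (73.5%) matched a gene symbol, each a different LOC number, beside 3457 of the 4930 eligible mRNAs. LOC numbers identify a locus without naming its function, so the mRNAs are described by accession and locus, and the tissue label could not be checked against marker genes. Each of the 147 symbols was carried by 1 transcript of the table only, as were 99.5% of the symbols of eligible mRNAs, which choosing whole estimates favours: fractions arise where reads are divided between similar transcripts. The library totals ran from 17819870 to 20218247 estimated reads in controls and from 29123228 to 33307386 in darkness, which leaves depth and light inseparable by design: they cannot be told apart. The eligible mRNAs had their highest or their lowest level in control replicate 2 in 56.1% of cases, against 20.4% to 36% for each of the other 5 libraries, so this library stands apart. Below, the choice of the 200 and the number of adjacent pairs are also given without it. The spread within controls and the counts under other scalings are given with it only.

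The coefficient of variation of the 200 mRNAs ran from 1.49% to 5.13% with a median of 4.31%, where the median of the 4930 eligible mRNAs was 15.7%. Between its highest and its lowest library, a steady mRNA differed by 1.04-fold to 1.17-fold (median 1.12-fold), and the median eligible mRNA by 1.5-fold. Their mean levels lay between 21.1 and 458 CPM with a median of 70.7 CPM. The lowest read count of any of the 200 in any library was 348. Together they held between 2.10% of the reads of control replicate 2 (95% Wilson interval 2.0949% to 2.1083%) and 2.14% of those of darkness replicate 2 (2.1382% to 2.1481%). The intervals cover counting error only. The share was 2.11% and 2.14% in control replicates 1 and 3 and 2.10% and 2.14% in darkness replicates 1 and 3.

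The mRNA with the lowest spread was XM_022930044.1 of LOC111326110, with 153, 152 and 148 CPM in the controls and 154, 149.9 and 153 CPM in darkness. Its highest and lowest libraries were darkness replicate 1 and control replicate 3. The groups overlapped, since darkness replicate 2 lay below control replicates 1 and 2. The next was XM_022932419.1 of LOC111328061, with 95, 96.6 and 97.3 CPM in the controls and 94.7, 99 and 95.8 CPM in darkness. XM_022949614.1, with no symbol, had 64.3, 63.7 and 64.3 CPM in the controls and 61.4, 64 and 64 CPM in darkness. Its 5 highest libraries lay within 1 CPM of each other and darkness replicate 1 lay below them. Rank 4 was XM_022930045.1 of LOC111326111, with 246, 241 and 243 CPM in the controls and 251, 238 and 245 CPM in darkness. LOC111326111 lies next to LOC111326110, the locus of the steadiest mRNA, in the gene order of the RefSeq table.

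The other 6 of the 10 steadiest had coefficients of variation between 2.13% and 2.19%. Among these, XM_022938877.1 had 89.4, 90.4 and 93.8 CPM in the controls and 92.9, 89 and 91.3 CPM in darkness. XM_022931170.1 of LOC111327069 had 67.1, 64.4 and 67.4 CPM in the controls and 65.5, 63.9 and 65.9 CPM in darkness. In both, control and darkness libraries were interleaved. XM_022929134.1 of LOC111325323 had 230.4, 236 and 231 CPM in the controls and 226, 240.3 and 236 CPM in darkness, and XM_022944471.1 of LOC111338067 had 39.6, 40.0 and 39.9 CPM in the controls and 41.7, 40.2 and 39.1 CPM in darkness. Darkness replicate 1 was the lowest library of LOC111325323 and the highest of LOC111338067, so no single library set the order. For XM_022924158.1 of LOC111321311 the levels were 70.3, 73.5 and 72.6 CPM in the controls and 69.4, 72.1 and 72.8 CPM in darkness. XM_022929907.1 of LOC111325991 had 34.1, 33.2 and 34.1 CPM in the controls and 34.5, 33.5 and 32.5 CPM in darkness, with its highest and its lowest level both in darkness libraries. In all 10 the control and darkness libraries overlapped, and the group means differed by at most 0.03 on the log2 scale.

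**Figure D1:**
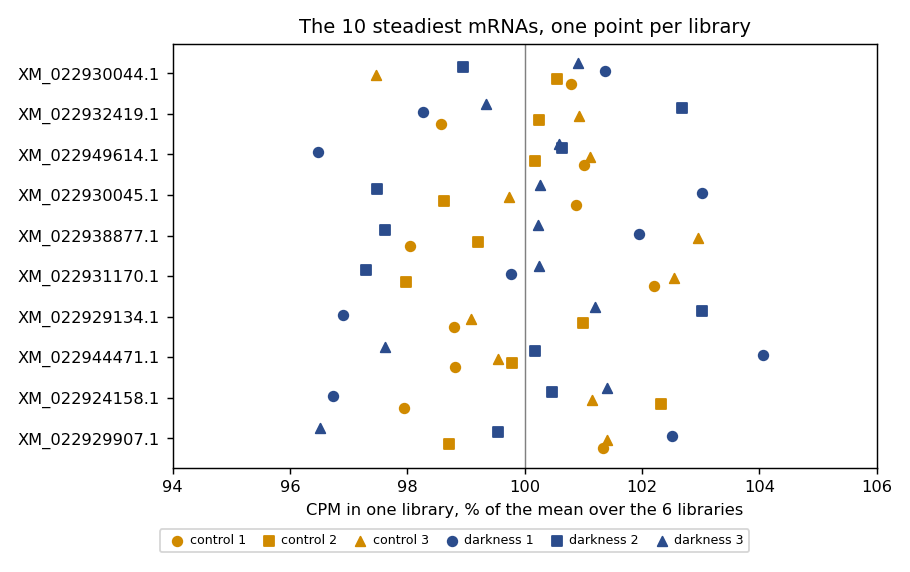
Level in each library as a percentage of the mRNA's mean CPM over 6 libraries (horizontal axis) for the 10 mRNAs with the lowest coefficient of variation, one row each; orange, control; blue, darkness; the symbol gives the replicate. The controls lie wholly above the mean in XM_022949614.1 and wholly below it in XM_022944471.1; in the other rows points of both groups lie on both sides of it.

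The 10 steady mRNAs with the highest CPM had means from 320.4 to 458 CPM. CPM is not divided by transcript length, so it does not rank these mRNAs by number of molecules. XM_022943078.1 had 464, 455 and 469 CPM in the controls and 422, 483 and 458 CPM in darkness. Its highest and lowest values were both in darkness, in replicates 2 and 1. XM_022937799.1 of LOC111332460 had 425, 444 and 447 CPM in the controls and 468, 479 and 471 CPM in darkness, and all 3 darkness libraries lay above all 3 controls. XM_022932202.1 of LOC111327890, which had the lowest spread of these 10 (2.61%), had 440.4, 419.9 and 454 CPM in the controls and 434, 431 and 441 CPM in darkness. Its level was lowest and highest in control replicates 2 and 3. XM_022950563.1 of LOC111343393 had 405, 378 and 422 CPM in the controls and 416, 389.7 and 388 CPM in darkness. XM_022934137.1 had 382, 409.9 and 413 CPM in the controls and 365, 391 and 381 CPM in darkness. Both overlapped between the groups, the first with its extremes in control replicates 2 and 3. XM_022931604.1 of LOC111327426 had 346, 382 and 353 CPM in the controls and 381, 361 and 393 CPM in darkness, and XM_022929892.1 of LOC111325975 had 357, 348 and 337 CPM in the controls and 355, 375 and 363 CPM in darkness. Each had its lowest level in a control and its highest in a darkness library, with the groups overlapping. For XM_022928259.1 of LOC111324648 the levels were 348, 341 and 373 CPM in the controls and 351, 341 and 337 CPM in darkness. XM_022940380.1 of LOC111334594 had 347, 315 and 364 CPM in the controls and 327, 346 and 342 CPM in darkness, its lowest and highest levels being those of control replicates 2 and 3. XM_022928187.1 of LOC111324589 had 329, 305 and 312 CPM in the controls and 319, 337 and 319.9 CPM in darkness. The coefficients of variation of these 10 lay between 2.61% and 5.03%.

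Counting alone gives a spread that falls with level, since an mRNA with more reads is counted more precisely. From each mRNA's mean CPM and the 6 library totals, Poisson counting would give the 200 mRNAs a median coefficient of variation of 2.44% (from 0.958% to 4.46%). The observed spread was 1.64 times this value at the median, against 5.42 times for the eligible mRNAs. In 25 of the 200 the observed spread was at or below the counting value, in 82 it was under 1.5 times it, and in 69 it was at least 2 times it. No other eligible mRNA could be at or below its counting value, since the rule fixes this. The largest counting value of any eligible mRNA, 4.59%, lies below the 5.13% at which the choice ended. The lowest ratio, 0.526, was that of XM_022944043.1 of LOC111337699, whose control libraries held 436, 406 and 475 estimated reads and whose darkness libraries held 715, 752 and 641. In CPM it had 22.3, 22.8 and 23.5 CPM in the controls and 22.5, 22.6 and 22 CPM in darkness. The highest ratio, 4.71, was that of XM_022931604.1 of LOC111327426, given above, with 6771, 6809 and 7138 estimated reads per control library and 12116, 12022 and 11431 per darkness library. Of the 1261 eligible mRNAs with 20 to 30 CPM, 25 (1.98%) were among the 200, and their median spread was 1.1 times the counting value. Of the 244 with at least 200 CPM, 27 (11.1%) were, at a median of 3.46 times the counting value. In the bands from 30 to 50, from 50 to 100 and from 100 to 200 CPM the shares were 2.74%, 5.06% and 6.19%. The median coefficient of variation of the steady mRNAs stayed between 4.22% and 4.5% in all 5 bands. The median counting value of the steady mRNAs was 4.1% from 20 to 30 CPM and 1.21% from 200 CPM up. The limit of 5.13% was the same at every level, so these ratios follow in part from the choice.

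**Figure D2:**
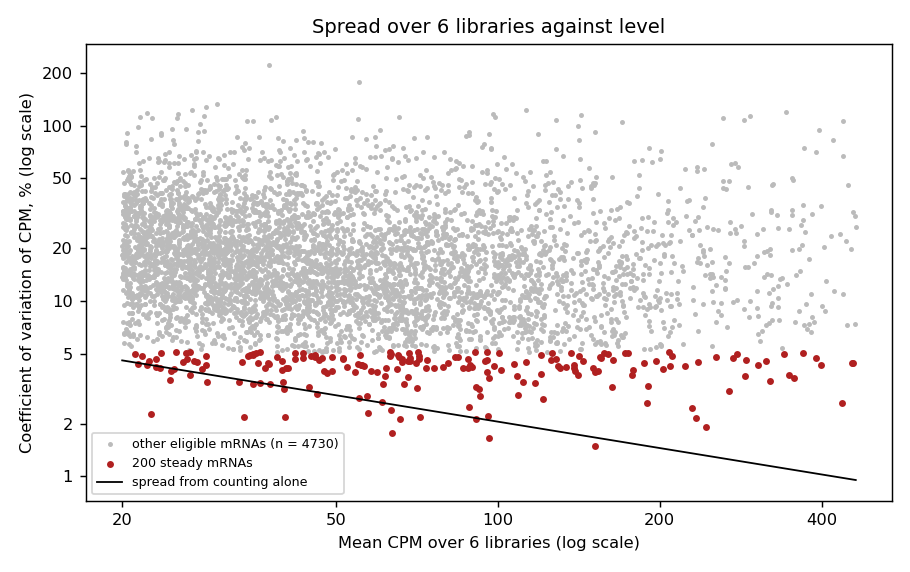
Coefficient of variation of CPM over 6 libraries against mean CPM, both on log scales, for the 200 steady mRNAs (red) and the other 4730 eligible mRNAs (grey); the line is the spread that Poisson counting alone would give. The red points lie at or under 5.13%, and the line passes from 4.59% at the lowest level to 0.953% at the highest.

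Within the groups, the 200 mRNAs had a median coefficient of variation of 3.75% among the 3 controls and 3.47% among the 3 darkness libraries, where the eligible mRNAs had 10.3% and 6.15%. More spread in controls than in darkness was seen in 104 of the 200 (52%) and in 72.3% of the eligible mRNAs. The 3 steady mRNAs with the largest spread among controls were XM_022925755.1 of LOC111322630, XM_022951812.1 of LOC111344570 and XM_022947280.1 of LOC111340433. XM_022925755.1 of LOC111322630 had 88.1, 86.8 and 99.8 CPM in the controls and 89.9, 90.3 and 89.6 CPM in darkness, so that control replicate 3 lay apart from the other 5 libraries. XM_022951812.1 of LOC111344570 had 91, 89.5 and 103 CPM in the controls and 97.7, 98.3 and 94.7 CPM in darkness. XM_022947280.1 of LOC111340433 had 132, 139 and 153 CPM in the controls and 139.9, 139.9 and 144 CPM in darkness. In all 3, control replicate 3 was the highest library and the darkness libraries lay between the control values. The smallest spreads among controls were those of XM_022936519.1 of LOC111331415, XM_022944524.1 of LOC111338103 and LOC111338067, given above. XM_022936519.1 of LOC111331415 had 46.9, 46.6 and 46.6 CPM in the controls and 43.3, 44.4 and 41.5 CPM in darkness. Its darkness libraries all lay below its controls. XM_022944524.1 of LOC111338103 had 70.2, 69.5 and 69.6 CPM in the controls and 71.1, 66.7 and 76.1 CPM in darkness. Here the darkness libraries lay on both sides of the controls, with a spread of 6.65% against 0.494%.

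Which library was highest or lowest differed among the 200 mRNAs. The extreme library was control replicate 2 for 75 (28 highest and 47 lowest) and darkness replicate 2 for 75 (47 highest and 28 lowest). Control replicate 3 was extreme for 72, darkness replicate 1 for 62, darkness replicate 3 for 60 and control replicate 1 for 56. The highest and the lowest library belonged to the same group in 75 of the 200 (37.5%), in 39 both to the controls and in 36 both to darkness. Among the eligible mRNAs this held for 14%, with 11.4% in controls and 2.64% in darkness. At the median, the 200 mRNAs stood at 99% to 101% of their own mean in every library, and the eligible mRNAs at 95.7% to 102%, lowest in control replicate 2.

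Between darkness and the light cycle, the group means of the 200 mRNAs differed by at most 0.12 on the log2 scale, 1.09-fold, with 98 higher and 102 lower in darkness. The largest difference upward was that of XM_022922059.1 of LOC111319247, with 22.1, 22.7 and 22.9 CPM in the controls and 24.2, 24.5 and 25.1 CPM in darkness. XM_022946099.1, with no symbol, had 40.7, 39.3 and 40.9 CPM in the controls and 44.3, 43.4 and 43.3 CPM in darkness. The largest difference in the other direction was that of XM_022936519.1 of LOC111331415, given above, at −0.12, followed by XM_022938278.1 of LOC111332820 with 27, 28.6 and 27.7 CPM in the controls and 26.4, 26.1 and 24.6 CPM in darkness. In these 4 mRNAs the groups did not overlap, although the difference of the means was under 10%. XM_022949355.1, with no symbol, had 165, 164 and 168 CPM in the controls and 153, 162 and 148 CPM in darkness. XM_022944871.1 of LOC111338387 had 102, 106 and 105 CPM in the controls and 100.1, 97.2 and 96.3 CPM in darkness, and XM_022948631.1 of LOC111341657 had 108, 107 and 112 CPM in the controls and 120.2, 113 and 117 CPM in darkness. In LOC111338387 and the unmatched mRNA all darkness libraries lay below the controls, and in LOC111341657 all lay above. Such separation was found in 21 of the 200 (10.5%), 13 with all darkness libraries above the controls and 8 with all below. It held for 44.1% of all tested transcripts (26.2% above and 17.9% below) and for 61.4% of the eligible mRNAs (31.9% above and 29.5% below). Nothing is read from the members' count, since the choice used these values. In edgeR's quasi-likelihood test, 0 of the 200 passed an adjusted p of 0.05, beside 18.5% of the 26906 transcripts tested; 10 had an unadjusted p under 0.05. limma-voom also called 0, and DESeq2 called 30, all lower in darkness, beside 33.6% of the transcripts to which it gave an adjusted p (18.2% lower). These counts, too, describe the choice.

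At the limit of the rule, the last mRNAs inside and the first outside could hardly be told apart. Ranks 196 to 200 were XM_022937131.1, XM_022927623.1, XM_022938278.1, XM_022939251.1 and XM_022942576.1, with coefficients of variation from 5.11% to 5.13%. Ranks 201 to 205 were XM_022927762.1, XM_022942131.1, XM_022931109.1, XM_022946426.1 and XM_022936334.1, with 5.13% to 5.15%. Rank 200 had 26.2, 24.1 and 23.1 CPM in the controls and 26, 25.9 and 26.1 CPM in darkness. Rank 201 had 44.9, 49.3 and 45.8 CPM in the controls and 47.4, 50.6 and 44.7 CPM in darkness.

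The 200 mRNAs were steady relative to the library totals, and other scalings moved them together. TMM (trimmed mean of M values) and RLE (relative log expression) set a library's size from the bulk of its transcripts instead of from its total. TMM factors averaged 0.97 in the controls and 1.03 in darkness, and the lowest was 0.919 in control replicate 2. In edgeR with TMM, the median log2 fold change of the 200 was −0.094, and −0.059 in the fit without control replicate 2. With TMM, 190 of the 200 mRNAs were lower in darkness, the median difference went from −0.0024 to −0.09 on the log2 scale, and all 3 darkness libraries lay below all 3 controls for 67 mRNAs and above them for 0. With RLE, 198 were lower, with a median of −0.11, and 77 lay wholly below. Upper quartile scaling gave 153 lower and a median of −0.05, with 24 wholly below and 2 above. Of all eligible mRNAs, 36.6%, 37.8% and 32.4% lay wholly below with TMM, RLE and upper quartile scaling, and 26.7%, 25.3% and 30.1% wholly above. Of all tested transcripts, 21%, 21.7% and 19.2% lay wholly below, and 22.7%, 21.8% and 24.9% wholly above. Nothing is read from the counts of the 200, since the choice used these values. Across all tested transcripts the median difference was 0.14 with library totals, 0.05 with TMM, 0.03 with RLE and 0.10 with upper quartile scaling. Across the eligible mRNAs it was 0.025, −0.067, −0.089 and −0.019 in the same order, so their median also moved below 0 with TMM, RLE and upper quartile scaling. The median of the steady mRNAs was below 0 under all 4 scalings, and the number lower in darkness ran from 102 to 198. A scaling factor moves every transcript of a library alike, so these shifts are common to the 200.

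**Figure D3:**
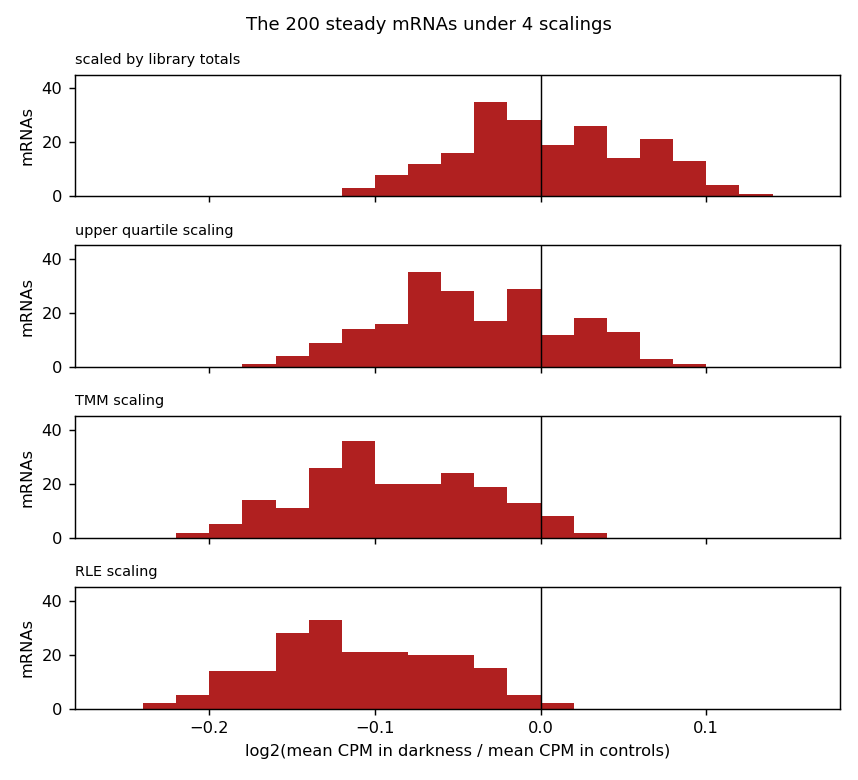
Number of the 200 steady mRNAs (vertical axis) by the log2 ratio of mean CPM in darkness to mean CPM in controls, with library totals, upper quartile, TMM and RLE scaling. The median moves from −0.0024 with library totals to −0.05, −0.09 and −0.11.

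With the rule applied to TMM-scaled CPM, 66 of the 200 mRNAs were chosen again, with RLE 43 and with upper quartile scaling 105. The 43 kept with RLE were kept under all 4 scalings. With library totals their group means differed by −0.01 to 0.12 on the log2 scale, with 38 of the 43 higher in darkness. With 1 library left out at a time, 72 of the 200 were chosen in all 6 cases. The mRNAs that were kept under every scaling and without any 1 library numbered 22, of which 18 have a symbol. These 22 were singled out after their values were seen. The steadiest of them with library totals was XM_022928362.1 of LOC111324733, with 57.8, 55.5 and 56 CPM in the controls and 57.6, 59 and 57.9 CPM in darkness. Next came XM_022933063.1 of LOC111328592, with 64.4, 61.3 and 61.4 CPM in the controls and 64, 63.7 and 64.8 CPM in darkness, and XM_022924526.1, with no symbol, with 225, 222 and 233 CPM in the controls and 228, 232 and 237 CPM in darkness. The groups overlapped in all 3 of these. XM_022932202.1 of LOC111327890, given above among those of highest CPM, followed these. With TMM, the lowest coefficients of variation among the 22 were 1.77% in XM_022952898.1 and 2.02% in XM_022933035.1 of LOC111328573. XM_022952898.1 had 89.3, 86.2 and 91.6 CPM in the controls and 92.7, 93.2 and 94.2 CPM in darkness with library totals, all darkness libraries lying above the controls. XM_022933035.1 had 90.3, 87.3 and 94.4 CPM in the controls and 92.1, 95 and 93.4 CPM in darkness. The 22 ranged from 39.8 to 437 CPM in mean level.

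A library that was not used for the choice shows how far steadiness carried over. For each library in turn, the rule was applied to the other 5, and the level of the 200 mRNAs so chosen was compared in the sixth with their mean in the 5. In darkness replicate 3 they deviated by a median of 4.14%, against 14.7% for all eligible mRNAs. The deviations were 5.66% against 15.5% in darkness replicate 1, 5.82% against 14.8% in darkness replicate 2 and 5.78% against 13.9% in control replicate 1. They were larger in control replicate 3, at 8.12% against 14.2%, and largest in control replicate 2, at 10.5% against 23.3%. The chosen mRNAs thus deviated less than the eligible mRNAs in 6 of 6 libraries, and most in the library that stands apart. Within 10% of the mean of the other 5 libraries lay 48.5% of those chosen without control replicate 2 and 85% of those chosen without darkness replicate 3, against 24.8% and 36.9% of the eligible mRNAs. These are descriptions, since the 6 choices share most of their libraries. Of the 200 steady mRNAs, 101 were chosen again without control replicate 2 and 119 without control replicate 3, and between 141 and 164 without any other library.

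**Figure D4:**
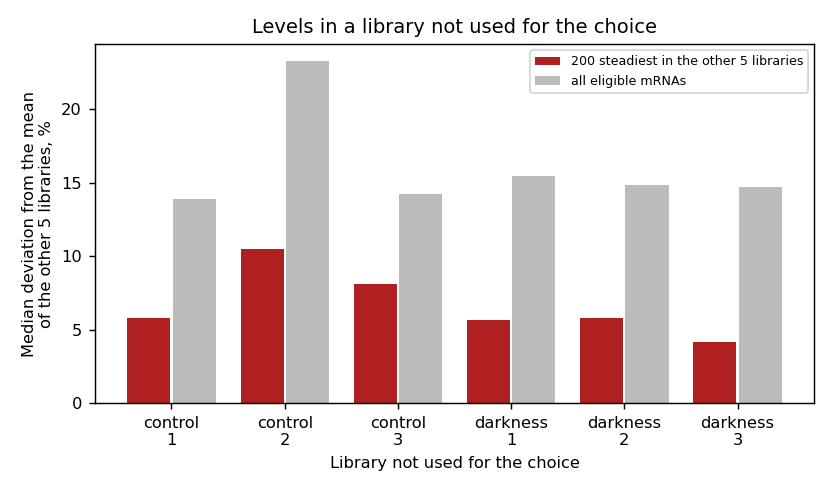
Median deviation, in percent, of the level in one library from the mean of the other 5 libraries, for the 200 mRNAs chosen on those 5 (red bars) and for all eligible mRNAs (grey bars). The red bars stand between 4.14% and 10.5% and the grey bars between 13.9% and 23.3%.

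The rule was also applied to the 3 libraries of each group alone, and the spread was taken among the 3 libraries of the other group. These lists rest on fewer libraries and on another measure than those above, so how far they carried over cannot be compared with them. The 200 mRNAs that varied least among the 3 controls alone, with a coefficient of variation of at most 2.23%, had a median of 6% among the darkness libraries, close to the 6.19% of all eligible mRNAs. Those that varied least among the 3 darkness libraries, at most 1.34%, had a median of 7.81% among the controls, against 10.5% of the eligible. The first list shared 38 of 200 members (19%) with the steady mRNAs and the second 19 (9.5%). Only 13 mRNAs were on both lists (6.5% of each). Of these, 3 were among the 200 steady mRNAs, namely LOC111326110 and LOC111324733 and the unmatched XM_022946099.1, all given above. In the controls-only list 31 of 200 (15.5%) differed at least 1.5-fold between the groups, and in the darkness-only list 33 (16.5%), against 25.2% and 25.4% of the eligible mRNAs.

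The neighbours of the steady genes were not used by the rule, so their change in darkness could be tested. In the gene order of the RefSeq assembly jaStyPist1.2, 166 genes next to one of the 147 matched genes, not themselves steady, were tested with the reads of each gene summed. Of these, 54 were called in edgeR (32.5%, adjusted p under 0.05), beside 29.8% of the 13183 matched genes tested and 30.1% of the 13036 that hold no steady mRNA. The count of 54 was 34 without control replicate 1, 35, 30 and 32 without darkness replicates 1, 2 and 3, and 35 with the replicate number as a block. Over all genes tested, with or without a symbol, the share called was 24.8% in the main fit. In those 5 fits it was 16.5%, 15.4%, 13.9%, 13.8% and 14.9%, so calls were fewer among all genes too. The calls were 11 higher (6.63%, beside 11.7%) and 43 lower (25.9%, beside 18% as the background); with library totals as the scaling they were 12 and 32, beside 14.1% and 14.7% of all matched genes. On the log2 scale the median size of a neighbour's change was 0.34, and that of all matched genes 0.42. For the 76 neighbours with a mean of at least 20 CPM the median size of change was 0.314, close to the 0.327 of the 5701 genes of that level. Of these neighbours 43.4% were called, beside 41.4% of the 5701. Their median coefficient of variation was 17.2%, where it was 16.2% for the 5701 genes. Among the genes that hold no steady mRNA, as the neighbours were chosen to be, the median size of change was 0.42, and the median coefficient of variation was 16.6% for the 5554 of at least 20 CPM. Steady genes at these places were left out of the 166 and are given below as adjacent pairs.

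The 4 called neighbours with the largest change and a mean of at least 20 CPM in one group, singled out after their values were seen, are given as examples. The level limit could be met by the higher group alone. Only the order of the genes was used, so no distance between them is given. LOC111328393, next to LOC111328411, had 46.1, 45 and 44.8 CPM in the controls and 4.59, 6.42 and 6.56 CPM in darkness, 8.29-fold lower (log2 fold change −3.05, SE 0.16, adjusted p = 0.000205, edgeR on genes). The steady mRNA of LOC111328411, XM_022932836.1, had 34.3, 38.2 and 36.6 CPM in the controls and 36.4, 35.8 and 33.9 CPM in darkness. The neighbour's controls lay far above its darkness libraries, whereas the groups of the steady mRNA overlapped. LOC111336828 had 129, 153 and 168 CPM in the controls and 40.3, 31.9 and 33.4 CPM in darkness, 4.56-fold lower (log2 fold change −2.19, SE 0.14, adjusted p = 0.000335, edgeR on genes). It lies next to LOC111336822, whose steady mRNA XM_022942984.1 had 272, 272 and 253 CPM in the controls and 285, 272 and 290.2 CPM in darkness, with all darkness libraries above the controls by a small margin. LOC111321398 had 14, 11.4 and 8.41 CPM in the controls and 41.5, 39.9 and 36.9 CPM in darkness, 3.26-fold higher (log2 fold change 1.70, SE 0.21, adjusted p = 0.00257, edgeR on genes). Its steady neighbour is XM_022924278.1 of LOC111321406, with 44.1, 46.6 and 45.6 CPM in the controls and 47.1, 50.4 and 48.8 CPM in darkness. The darkness libraries of that mRNA, too, lay just above its controls. LOC111325075 had 37.1, 40.1 and 32 CPM in the controls and 12.8, 12.9 and 10.6 CPM in darkness, 3.23-fold lower (log2 fold change −1.69, SE 0.16, adjusted p = 0.00106, edgeR on genes), beside XM_022928855.1 of LOC111325120, with 149, 151 and 135 CPM in the controls and 145, 148 and 137 CPM in darkness. All 4 changes were also called in each of the 6 fits that omit a library, with 0.0159 as the highest adjusted p (edgeR on genes).

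**Figure D5:**
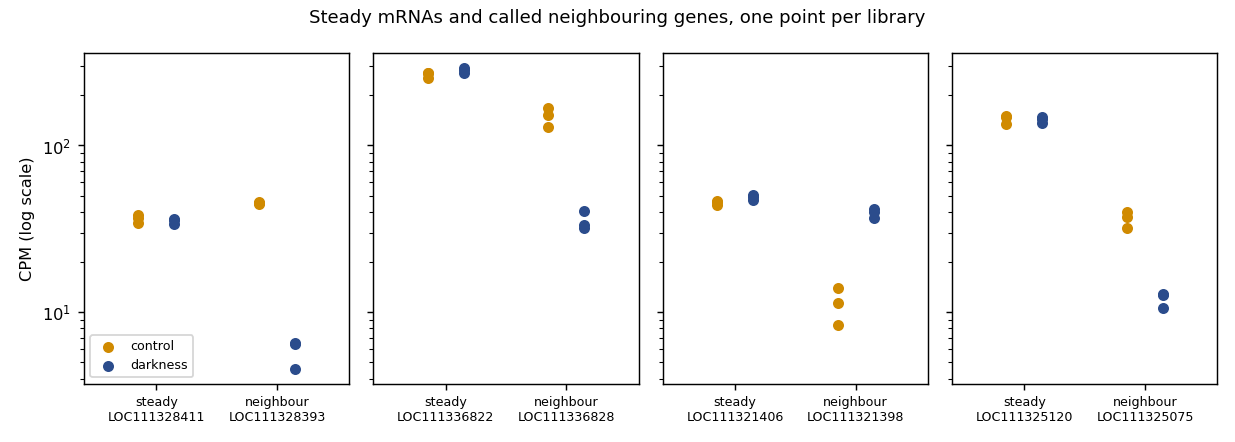
CPM (log scale) of 4 steady mRNAs and of the called gene next to each, one point per library; orange, control; blue, darkness. The steady mRNAs lie at nearly the same level in both groups, while their neighbours differ 3.23-fold to 8.29-fold between the groups.

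In all, 5 pairs of adjacent genes held a steady mRNA on both sides. They were LOC111326110 with LOC111326111, LOC111328056 with LOC111328061, LOC111328364 with LOC111328365, LOC111331890 with LOC111331912, and LOC111336821 with LOC111336822. Of the places next to a steady gene that hold an eligible gene, 10 of 66 (15.2%) held another steady gene, whereas steady genes are 4.25% of the eligible genes. Each pair is counted from both of its genes in these 10 places. For the 200 steadiest with TMM the share was 4 of 64 (6.25%, beside 3.99%). With RLE it was 8 of 62 (12.9%, beside 4.02%) and with upper quartile scaling 6 of 73 (8.22%, beside 4.08%). LOC111326110 and LOC111326111, at ranks 1 and 4, overlap in the RefSeq table, which may not be of the build of the counts. Both mRNAs had whole estimates in all 6 libraries, as the rule requires. Reads of one may have been counted under the other, which was not tested. Their mean levels were 151 and 244 CPM. The genes of the other 4 pairs do not overlap. XM_022932408.1 of LOC111328056 had 266, 301 and 284 CPM in the controls and 297, 299 and 293 CPM in darkness, with control replicate 1 lowest, beside the narrower range of LOC111328061 given above. With TMM the 200 steadiest held 2 adjacent pairs and none of these 5, and without control replicate 2, darkness replicate 1 or darkness replicate 3 there were 2, 2 and 3 pairs.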

How the data were processed

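The deposited table holds the authors' estimated counts per transcript for 3 control and 3 darkness libraries, not scaled to depth. The submitters' processing notes name fastp, Salmon 0.11.4 and DESeq2, without roles; build and strandedness are likewise not given in the sources used here. Columns were assigned by sample description, and 0 were left unused. The members and lists were chosen with earlier results of these data known.

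The rule used CPM from library totals and whole estimates (tolerance 1e-09). For tests, estimates were rounded to whole numbers, filtered with filterByExpr, scaled by TMM and fitted with edgeR 4.0.16 (quasi-likelihood, robust, group only, all 6 libraries; two-sided, Benjamini-Hochberg over all features, threshold 0.05) in R 4.3.3, with limma 3.58.1 and DESeq2 1.42.0 as alternatives. The SE is the fold change divided by the square root of F. On simulated counts for darkness against control, with 25629 transcripts passing the filter, only 200 transcripts were given a difference. Of these, 14 of 100 simulated 2-fold and 46 of 100 simulated 4-fold differences were found, and 5 unchanged transcripts were called. In the data 18.5% of the transcripts were called, a far larger share than was changed in the simulation. The adjusted p depends on that share, so these counts do not give the power of the tests here. The rule recovered 192 of 200 mRNAs simulated with counting error alone among 4930, where all the others were given the same added spread. In the data the coefficients of variation of the eligible mRNAs had a lower quartile of 10.1% and a median of 15.7%, with no gap at the limit. This recovery therefore does not say how well the rule separates steady mRNAs here.

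Named mRNAs are the 10 of lowest spread, the 10 of highest mean CPM, the 5 on each side of the limit, any called by edgeR and the 3 of highest and lowest spread in controls; others were singled out after their values were seen. Neighbours come from the RefSeq table of jaStyPist1.2, which may not be the build of the counts; positions are therefore left out. With no product names and no sequences at hand, the planned lists of product names, promoter motifs and protein features were not analysed here. Precision is limited by depth: 3 reads stand for 0.0901 to 0.168 CPM.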

Additional observations from a re-analysis of the deposited data

How the results depend on the processing

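Of the 200 mRNAs, 66 were chosen again with TMM, 43 with RLE and 105 with upper quartile scaling, 38 from the controls only and 19 from darkness only, and 101 to 164 with 1 library left out. With a minimum of 10 or 50 CPM, the most abundant mRNAs kept in, fractional estimates included, the SD of log2(CPM + 1), the ratio of highest to lowest CPM, or the 200 set aside taken among whole-number mRNAs (chosen after seeing the data), 136 to 193 were kept. The cause was not tested. Adjacent pairs, 5 in the report, numbered 2, 4 and 3 with TMM, RLE and upper quartile scaling, and 2 to 6 with 1 library left out, all chosen after seeing the data. The count of members called was 0 in edgeR under every scaling, filter and left-out library run and with limma-voom, and 30 with DESeq2. With the libraries scaled by the reads of the 200 mRNAs, added after seeing the data, 4963 transcripts were called over the whole table, against 4985 with TMM. Called neighbours (54) numbered 44 with library totals and 30 to 47 with 1 library left out. The lower counts were 34, 35, 30 and 32 without control replicate 1 and darkness replicates 1, 2 and 3. Over all genes tested, 24.8% were called in the main fit, 24.2% with library totals and 13.8% to 22.8% with 1 library left out. With the replicate number as a block, 0 members and 35 neighbours were called. No label pairs the nubbins, and deviations of same-numbered libraries correlated at −0.037, −0.034 and 0.040. The ratio of observed to counting spread, 1.64, was 2.39 with TMM and 1.54 to 1.78 with 1 library left out. Other transcripts of the members' genes could not be examined, since each matched symbol had 1 transcript.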

Other observations

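Steadiness at the limit of the 200 mRNAs (5.13%) was also found among transcripts that the rule leaves out. Of 162 non-coding models with whole estimates and at least 20 CPM, 7 (4.32%) were at or below it, close to the 4.06% of eligible mRNAs. XR_002694761.1 of LOC111329979 had 28.6, 29.5 and 30.8 CPM in the controls and 31.4, 30.5 and 30.3 CPM in darkness, with the groups overlapping. XR_002695435.1, with no symbol, had 1076, 1063 and 1146 CPM in the controls and 1182, 1153 and 1146 CPM in darkness. Of the 200 most abundant mRNAs set aside by the rule, 22 (11%) were at or below the limit. XM_022943358.1 of LOC111337124 had 2672, 2735 and 2796 CPM in the controls and 2631, 2684 and 2642 CPM in darkness. Of 3495 mRNAs of at least 20 CPM with a fractional estimate, 63 (1.8%) were.

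Of the 13 mRNAs among the 200 least variable in both groups, 10 were not among the steady mRNAs. Their group means differed by 0.03 to 0.85 on the log2 scale, with a median of 0.27. The smallest difference was that of XM_022939721.1 of LOC111334038, with 483, 469 and 467 CPM in the controls and 465, 466 and 455 CPM in darkness. Its coefficient of variation over the 6 libraries, 1.89%, was below the limit, and it was set aside as one of the most abundant. The 4 largest differences follow. XM_022945021.1, with no symbol, had 41.3, 39.9 and 39.8 CPM in the controls and 72, 72.3 and 73.5 CPM in darkness. XM_022932829.1 of LOC111328401 had 89.3, 87.8 and 91.2 CPM in the controls and 56.9, 57.1 and 56.3 CPM in darkness. XM_022930690.1 of LOC111326648 had 33.1, 32.3 and 32.6 CPM in the controls and 22.8, 22.9 and 22.4 CPM in darkness, and XM_022929259.1 of LOC111325451 had 81.9, 80.9 and 83.7 CPM in the controls and 57.2, 57.4 and 56.8 CPM in darkness. In these 4 the groups lay far apart beside a spread within groups of a few percent. Among mRNAs least variable in controls only, XM_022940954.1 of LOC111335096 differed most, with 25, 24.5 and 25.4 CPM in the controls and 1.35, 1.95 and 0.515 CPM in darkness. These mRNAs were chosen after their values were seen and were not tested.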
